A study of Rattus norvegicus with 6 samples.

Results

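A set of 40 genes of fatty acid oxidation and ketone body metabolism was compared in the colon of S.LEW congenic and S rats. They cover the uptake and activation of fatty acids, the carnitine shuttle, the mitochondrial and peroxisomal steps of beta-oxidation, ketone bodies and their transport, thioesterases, and a few regulators. A gene was a member when the accession of an array probe mapped to it, and the probe with the highest mean signal stood for the gene. Of the 40 members, 38 had a probe that could be tested, among 12396 genes tested in all. The rule used no measured difference between the strains, but the 40 members were chosen with earlier results of these data known. Their counts beside those of all genes are therefore descriptive and not a test of the set. Of ketone body genes the set holds only Acat1, Bdh1 and the transporter Slc16a1, so the values below are mostly those of beta-oxidation.

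The S rat is the inbred hypertensive Dahl salt-sensitive strain (SS/Jr), and the congenic strain, S.LEW(10)x12x2x3x5, carries a short segment of Lewis (LEW) genome on the S background. All 6 rats were males on a diet with 0.3% NaCl, and all received the colon carcinogen azoxymethane (AOM) as 2 weekly intraperitoneal injections of 15 mg/kg from 6 weeks of age. Colon RNA was taken at 30 weeks from 3 rats of each strain (C1, C2 and C3, congenic, and S1, S2 and S3) and hybridized to 1 single-color array per rat. There was no group without AOM, and whether a piece of colon held tumor is not given in the sources used here. The comparison asks in which genes the strains differ under the same carcinogen.

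Fatty acids enter beta-oxidation as acyl-CoA. Long chains cross into mitochondria as carnitine esters, are shortened there by rounds of dehydrogenation, hydration, dehydrogenation and thiolysis, and pass their electrons through the electron transfer flavoprotein to the respiratory chain. Peroxisomes shorten very long and branched chains, with dehydrogenation by oxidases in place of the dehydrogenases. Colonocytes are known for burning short-chain fatty acids, above all butyrate from the gut bacteria, and many genes of the pathway are textbook targets of the PPAR nuclear receptors.

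The share of spots well above background was 80.9%, 73.8% and 78.5% in C1, C2 and C3 and 86.3%, 83.2% and 87.6% in S1, S2 and S3. Every congenic array thus had a lower share than every S array. This limits what can be read from a probe well above background on fewer congenic than S arrays. No spot was saturated. The S rats did not form a single cluster over all tested probes: S1 and S3 correlated at 0.980 with each other, while S2 correlated at 0.900 with S1, at 0.936 with S3 and at 0.967 to 0.976 with the congenic rats. Lymphoid markers separated the same rats, with their mean log2 signal at 3.74 (S1) and 3.50 (S3) above the mean of 6 rats, at -1.93 in S2 and at -1.86 to -1.63 in the congenic rats. Of that list of 10 genes, 4 could be tested and the other 6, among them Cd3e, Cd2 and Cd79b, could not. The arrays carry 2 scan times. The first holds C1, S1, S2 and S3 and the second C2 and C3. All 7 epithelial markers were well above background in every rat of this tissue labelled as colon. In bulk tissue, fewer cells of a type and less RNA per cell cannot be told apart.

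Most genes of beta-oxidation had a higher signal in the congenic rats, though none passed the threshold after adjustment over all probes. On the log2 scale 32 of the 38 tested members had a positive fold change, against 53.0% of all genes tested. The median fold change of the members was 0.52 and that of all genes 0.03. In limma, 19 of 38 members were higher in the congenic rats at an unadjusted p under 0.05, against 10.1% of all genes, and 1 member was lower, against 4.41%. All 3 congenic rats lay above all 3 S rats in 24 members, against 14.2% of genes, and below all S rats in 1, against 4.97%. With a 2-fold change required as well, 3 members were higher, Slc27a4, Cpt1a and Ehhadh, against 3.79% of genes, and none was lower, against 2.64%.

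None of these differences passed the Benjamini-Hochberg adjustment over all probes in limma, in which 0 of 23971 probes had an adjusted p under 0.05. Slc27a4 had the smallest among the members, 0.203. An exact two-sided permutation test of 3 rats against 3 cannot give a p below 0.1. The methods' t-test with the same adjustment gave 0 members as well, and limma with array weights gave 22 members higher and 1 lower, with 22.0% of all genes higher and 16.0% lower. These counts depended on S2. Without S2, 19 members were higher at an adjusted p under 0.05 in limma, with 14.1% of all genes higher and 11.6% lower at that level. With S2 as the only S rat, 10 members were higher at an unadjusted p under 0.05, against 4.87% of genes, with a median fold change of 0.41. That comparison was chosen after the profile of S2 was seen, and its spread came from the congenic rats alone, S2 being assumed to vary like them.

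**Figure D1:**
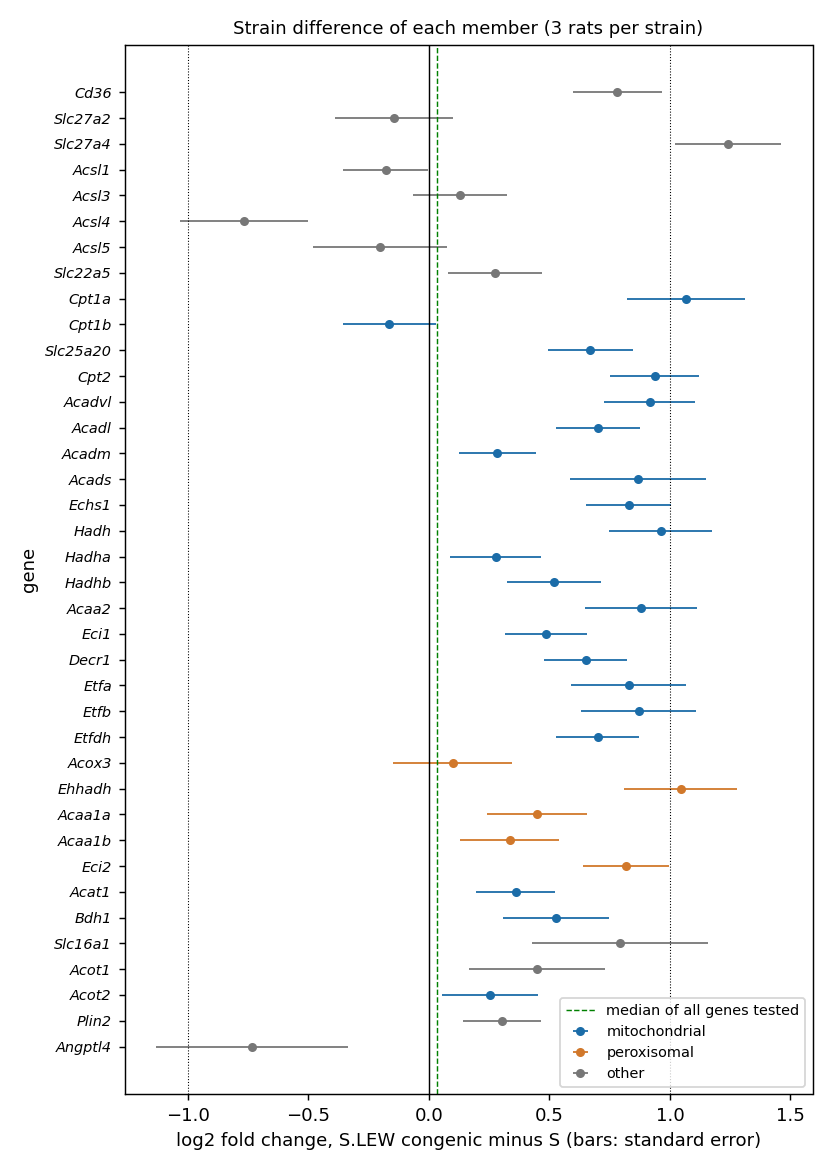
Log2 fold change of each tested member, S.LEW congenic minus S, with its standard error (3 rats per strain). Blue marks mitochondrial, orange peroxisomal and grey other members, and the dashed line is the median of all genes tested, 0.03. Of the 21 mitochondrial members 20 lie to the right of 0, and Cpt1b at -0.16 does not.

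Of the 21 mitochondrial members, all tested, 15 were higher at an unadjusted p under 0.05, 18 had every congenic rat above every S rat, and the median log2 fold change was 0.70. Of the 6 peroxisomal members 5 were tested, 2 were higher (Ehhadh and Eci2), 3 had no overlap, and the median was 0.45. Of the 13 others 12 were tested, 2 were higher (Slc27a4 and Cd36), 1 was lower (Acsl4), and the median was 0.20. Over all genes tested, 10.1% were higher and 4.41% lower at that p. Every congenic rat lay above every S rat in 14.2% of them. The mean over the mitochondrial members, as a log2 deviation from the mean of 6 rats, was 0.41, 0.33 and 0.22 in C1, C2 and C3. In S1, S2 and S3 it was -0.35, -0.21 and -0.40. For the peroxisomal members the values, in the same order, were 0.31, 0.21 and 0.30, and -0.24, -0.17 and -0.41. S2 was the nearest S rat to the congenic rats in both compartments. The difference between the compartments was not tested.

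**Figure D2:**
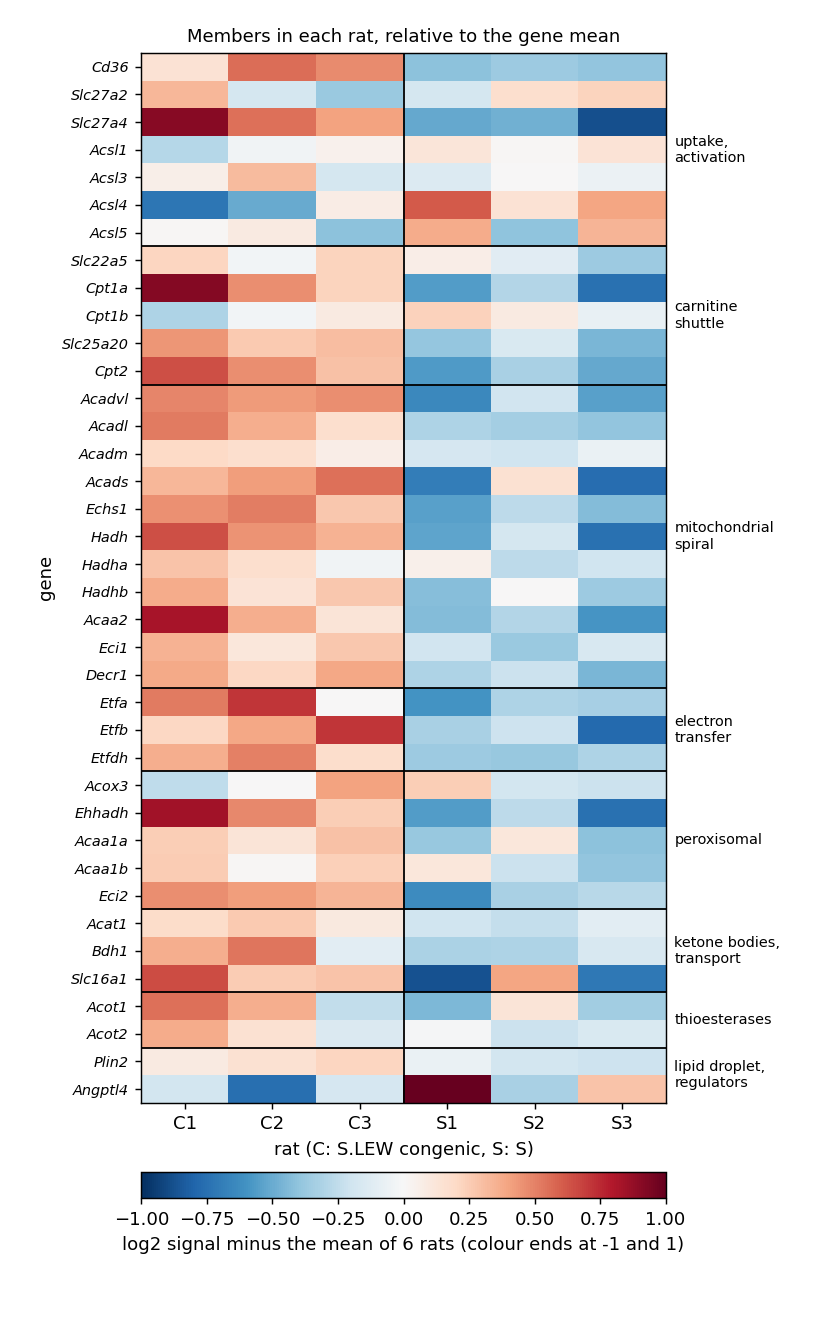
Log2 signal of each tested member in each rat minus its mean over 6 rats, by role (red above, blue below, color ends at -1 and 1). C1 to C3 are S.LEW congenic and S1 to S3 are S rats. The blocks of the carnitine shuttle, the mitochondrial spiral and electron transfer are mostly red on the left and blue on the right, with S2 the highest S rat in 12 of the 21 mitochondrial members.

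Uptake and activation split. Slc27a4, which encodes the fatty acid transport protein FATP4, had the largest fold change of the members. Its log2 signal was 12.08, 11.72 and 11.57 in the congenic rats C1, C2 and C3 and 10.66, 10.69 and 10.29 in the S rats S1, S2 and S3. The strains did not overlap, and the means of 11.79 ± 0.26 and 10.55 ± 0.22 (SD, n = 3) gave a 2.36-fold difference (log2 fold change 1.24, SE 0.22, limma adjusted p = 0.203). Cd36, a fatty acid translocase, had log2 signals of 8.80, 9.22 and 9.12 in the congenic rats and 8.24, 8.29 and 8.26 in the S rats. The S rats were within 0.02 (SD) of their mean and the congenic rats all lay above them, by 0.78 (SE 0.18) in the mean. A second Cd36 probe gave 0.61 with overlapping strains, at an unadjusted p just under 0.05 in limma. Cd36 is also abundant in fat, and 7 adipocyte markers of 9 were tested, all with a positive fold change, 3 of them at an unadjusted p under 0.05 (Cfd, Adipoq and Cidec). Their mean deviation was 0.10, 0.63 and 0.81 in C1, C2 and C3 and -0.14, -0.58 and -0.81 in S1, S2 and S3. Their part in the Cd36 difference was not tested.

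Acsl4, an acyl-CoA synthetase with a preference for arachidonic acid, was the member that was lower. Its log2 signal was 7.50, 7.72 and 8.29 in the congenic rats and 8.83, 8.36 and 8.62 in the S rats. C3 came close to S2, yet the strains did not overlap, and the log2 fold change was -0.77 (SE 0.27). Acsl4 no longer had an unadjusted p under 0.05 without C1, C2, S1 or S3. The other synthetases and transporters of this step, which trap fatty acids as acyl-CoA, overlapped between strains: Acsl1 at -0.18, Acsl3 at 0.13, Acsl5 at -0.20 and the transport protein Slc27a2 at -0.14.

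In the carnitine shuttle, Cpt1a, Slc25a20 and Cpt2 were higher in the congenic rats. Cpt1a encodes the carnitine palmitoyltransferase of the outer membrane, the rate-controlling entry step. Its log2 signal was 11.98, 11.53 and 11.29 in the congenic rats and 10.51, 10.77 and 10.32 in the S rats, without overlap. The difference was 2.09-fold (log2 fold change 1.07, SE 0.25, limma adjusted p = 0.263). Slc25a20, the carnitine-acylcarnitine translocase of the inner membrane, had 9.39, 9.21 and 9.26 against 8.56, 8.79 and 8.49 (log2 fold change 0.67). Cpt2, which returns the chain to CoA inside, had 9.44, 9.26 and 9.08 against 8.22, 8.47 and 8.28 (log2 fold change 0.94). In all 3 genes S2 was the highest S rat and still lay below every congenic rat. Cpt1b, the muscle form of Cpt1a, overlapped at -0.16, with log2 signals of 8.49 to 8.88 in the congenic and 8.72 to 9.02 in the S rats. Striated muscle markers differed in direction. Of 7 tested, Myh1, Mybpc1 and Tnnt3 were lower in the congenic rats at an unadjusted p under 0.05, Myh1 and Mybpc1 with 0 of 3 congenic arrays well above background, while Ckm (0.15) and Acta1 (0.42) overlapped, and the median of the list was -1.39. All 6 smooth muscle markers overlapped, each with a positive log2 fold change and a median of 0.92, with S1 the lowest rat at a mean deviation of -1.59. The part of muscle content in the Cpt1b value was not tested. Slc22a5, the plasma membrane carnitine transporter, overlapped at 0.27.

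**Figure D3:**
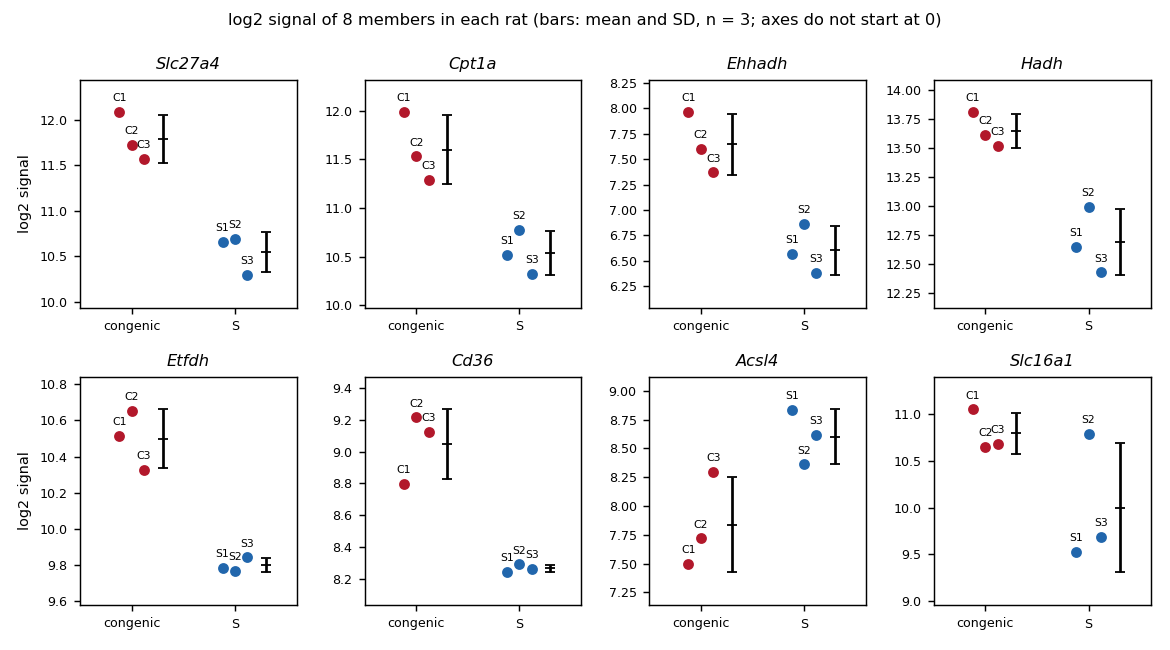
Log2 signal of 8 members in each rat (points), with the mean and SD of each strain as bars (n = 3, axes do not start at 0). Slc27a4, Cpt1a, Ehhadh, Hadh, Etfdh and Cd36 have every congenic rat (red) above every S rat (blue), Acsl4 has every congenic rat below, and for Slc16a1 the rat S2 lies among the congenic rats.

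Within the mitochondrial spiral 9 of 11 members were higher at an unadjusted p under 0.05, against 10.1% of all genes. The acyl-CoA dehydrogenases, which open each round for their chain length, were Acadvl (very long), Acadl (long), Acadm (medium) and Acads (short). Acadvl had log2 signals of 11.22, 11.15 and 11.19 in the congenic rats and 10.09, 10.54 and 10.19 in the S rats (log2 fold change 0.92, SE 0.19). Acadl had 13.64, 13.48 and 13.29 against 12.81, 12.78 and 12.72 (log2 fold change 0.70, SE 0.17). Acads, the dehydrogenase that acts on butyryl-CoA, had 13.07, 13.15 and 13.29 against 12.04, 12.89 and 11.98 (log2 fold change 0.87, SE 0.28). Here S2 stood well above S1 and S3 and close under the congenic rats. Acadm had a log2 fold change of 0.28 and did not reach the threshold, although its strains did not overlap.

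The later enzymes of the spiral followed the same order of strains. Echs1, the short-chain enoyl-CoA hydratase, had log2 signals of 11.96, 12.02 and 11.78 in the congenic rats and 10.96, 11.24 and 11.07 in the S rats (log2 fold change 0.83). Hadh, the 3-hydroxyacyl-CoA dehydrogenase for short and medium chains, had 13.81, 13.62 and 13.52 against 12.64, 12.99 and 12.43 (log2 fold change 0.96). Acaa2, the thiolase that releases acetyl-CoA, had 12.28, 11.82 and 11.58 against 11.02, 11.16 and 10.86 (log2 fold change 0.88). In each of these the lowest congenic rat was above the highest S rat. Hadha and Hadhb encode the subunits of the trifunctional protein for long chains. Hadhb had 11.02, 10.79 and 10.92 against 10.22, 10.65 and 10.29 (log2 fold change 0.52), with S2 close to C2. The chosen Hadha probe had a log2 fold change of 0.28 with overlapping strains, and a second Hadha probe had 0.58 without overlap at an unadjusted p under 0.05, so the call for Hadha depended on the probe.

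The auxiliary enzymes for unsaturated chains were also higher. Eci1, an enoyl-CoA isomerase, had log2 signals of 11.20, 10.96 and 11.12 in the congenic rats and 10.66, 10.48 and 10.69 in the S rats (log2 fold change 0.49). Decr1, the 2,4-dienoyl-CoA reductase, had 11.60, 11.43 and 11.61 against 10.91, 11.01 and 10.76 (log2 fold change 0.65). Hadhb lost the unadjusted p under 0.05 without any 1 of C1, C2, C3, S1 and S3, Eci1 without C1, C3, S1 or S3, and Acads without C2, C3, S1 or S3.

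The 3 genes that carry electrons from the dehydrogenases to ubiquinone were all higher. Etfa, a subunit of the electron transfer flavoprotein, had log2 signals of 10.56, 10.75 and 10.04 in the congenic rats and 9.44, 9.73 and 9.71 in the S rats (log2 fold change 0.83, SE 0.24). Etfb, its partner subunit, had 12.99, 13.17 and 13.50 against 12.46, 12.58 and 12.01 (log2 fold change 0.87, SE 0.24). Etfdh, the ubiquinone oxidoreductase that receives the electrons, had 10.51, 10.65 and 10.33 against 9.78, 9.77 and 9.84 (log2 fold change 0.70, SE 0.17). The order of rats differed between the subunits: C3 was the lowest congenic rat for Etfa and the highest for Etfb.

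Of the peroxisomal enzymes, Ehhadh and Eci2 were higher. Ehhadh, the bifunctional hydratase and dehydrogenase, had log2 signals of 7.96, 7.60 and 7.37 in the congenic rats and 6.56, 6.86 and 6.38 in the S rats. The strains did not overlap, and the difference was 2.06-fold (log2 fold change 1.04, SE 0.23, limma adjusted p = 0.246). With normexp background correction the log2 fold change of Ehhadh was 0.64, under 2-fold. Eci2, an enoyl-CoA isomerase of peroxisomes, had 11.21, 11.16 and 11.08 against 10.12, 10.42 and 10.46 (log2 fold change 0.82, SE 0.18). The peroxisomal thiolases Acaa1a and Acaa1b had 0.45 and 0.33 and did not reach the threshold, and second probes gave 0.58, at an unadjusted p under 0.05, and 0.44. These paralogs are close in sequence, so a probe may read either, and their separate values are uncertain. The oxidase Acox3 overlapped at 0.10. Acox2, an oxidase of branched chains and bile acid intermediates, was well above background on 0 of 3 congenic and 2 of 3 S arrays and was not tested.

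With all 6 rats the ketone body genes did not reach the threshold. Slc16a1, the monocarboxylate transporter MCT1 that carries butyrate and ketone bodies, had log2 signals of 11.05, 10.65 and 10.68 in the congenic rats and 9.52, 10.79 and 9.68 in the S rats (log2 fold change 0.79, SE 0.37). S2 lay within the congenic range, and S1 and S3 lay below it. Without S2 the log2 fold change of Slc16a1 was 1.19 and reached the unadjusted threshold in limma. Acat1, the acetoacetyl-CoA thiolase, had 0.36 (SE 0.16), and Bdh1, the 3-hydroxybutyrate dehydrogenase, had 0.53 (SE 0.22), both with every congenic rat above every S rat. Among the thioesterases, which free fatty acids from CoA, Acot1 had log2 signals of 6.79, 6.61 and 6.00 in the congenic rats and 5.79, 6.37 and 5.89 in the S rats (log2 fold change 0.45) with overlap. The log2 fold change of Acot1 was 0.29 without C1 and 0.68 without C3, and the latter reached the unadjusted threshold. Acot2 had 0.25 with overlap. Acot1 and Acot2 are near-identical paralogs, and their separate values are likewise uncertain.

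Of the 3 PPAR targets and lipid droplet genes listed outside the pathway, 2 were tested. With all 6 rats neither reached the unadjusted threshold, and their fold changes had opposite signs. Angptl4, a secreted inhibitor of lipoprotein lipase, had log2 signals of 8.30, 7.74 and 8.32 in the congenic rats and 9.62, 8.16 and 8.77 in the S rats (log2 fold change -0.73, SE 0.40). S1 stood apart at the top and S2 lay among the congenic rats. Without S1 the log2 fold change of Angptl4 was -0.35, and without S2 it was -1.08 and reached the unadjusted threshold. Plin2, the lipid droplet coat protein, had 0.30 (SE 0.16) without overlap. Pdk4, the kinase that restrains pyruvate oxidation, was well above background on 0 of 6 arrays and was not tested.

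Of a wider list of 48 genes of beta-oxidation, ketone bodies and related acyl-CoA metabolism that are not members, 41 were tested. Of these, 23 were higher and 1 lower at an unadjusted p under 0.05. A positive fold change was found in 39, and the median was 0.59. Over all genes tested, 10.1% were higher and 4.41% lower at that p. The 23 include the acetyl-CoA carboxylase Acacb (log2 fold change 1.02), which is not an enzyme of fatty acid oxidation. They also include Acadsb (1.41) and Ivd (0.60) of branched-chain amino acid breakdown. The lower gene was Acsm3, whose probe was well above background on 0 of 3 congenic arrays. The lowest p belonged to Acot7 (log2 fold change 0.76), Mcee (1.04), Acot13 (1.06), Acot4 (1.08) and Acsf2 (1.52). Mcee epimerizes methylmalonyl-CoA from odd chains, Acsf2 activates medium chains, and the Acot genes are thioesterases. Of 20 genes listed for peroxisome biogenesis 4 were higher and none lower, with a median of 0.22, and these 4 were Pex11g, Pxmp2, Pex11a and Pex7. The list also holds catalase (Cat) and the peripheral myelin gene Pmp22, which are not biogenesis genes and not among the 4. Of 12 PPAR receptors and partners 10 were tested and 6 were higher: Ppara (1.18), Pparg (1.63), Rxra (0.81), Rxrg (0.98) and the coactivators Ppargc1a (0.86) and Ppargc1b (1.05). Ppard had 0.51 and did not reach the threshold. Pparg is also abundant in fat, whose markers moved with strain as given above. The citric acid cycle, which takes up the acetyl-CoA of beta-oxidation and was listed after the members' values were seen, had a positive fold change in 17 of 17 genes, 12 at an unadjusted p under 0.05, with a median of 0.53.

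Epithelial markers moved with strain as well. All 7 (Epcam, Cdh1, Cdh17, Vil1, Krt8, Krt18 and Krt19) had a positive log2 fold change, 5 at an unadjusted p under 0.05, with a median of 0.81. Their mean deviation was 0.61, 0.52 and 0.01 in C1, C2 and C3 and -0.67, -0.15 and -0.32 in S1, S2 and S3. Of 8 tested markers of absorptive colonocytes 3 were higher (Krt20, Slc26a3 and Slc9a3) and 2 lower (Aqp8 and Guca2b). With the epithelial mean as a covariate, 1 member was higher at an unadjusted p under 0.05, against 2.65% of all genes, while 32 to 34 members had a positive fold change under every alternative in which they were counted, and the median with this covariate was 0.48. Because this covariate differs between strains, the part of epithelial content and that of strain cannot be told apart here. With the lymphoid mean as a covariate, 14 members were higher, against 6.45% of genes, and the median was 0.41. Among the S rats only S2 had a lymphoid mean like that of the congenic rats. The strain difference in this fit therefore rests largely on S2, and S2 alone against the congenic rats also had a median of 0.41. Lymphoid content and strain cannot be told apart here either.

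**Figure D4:**
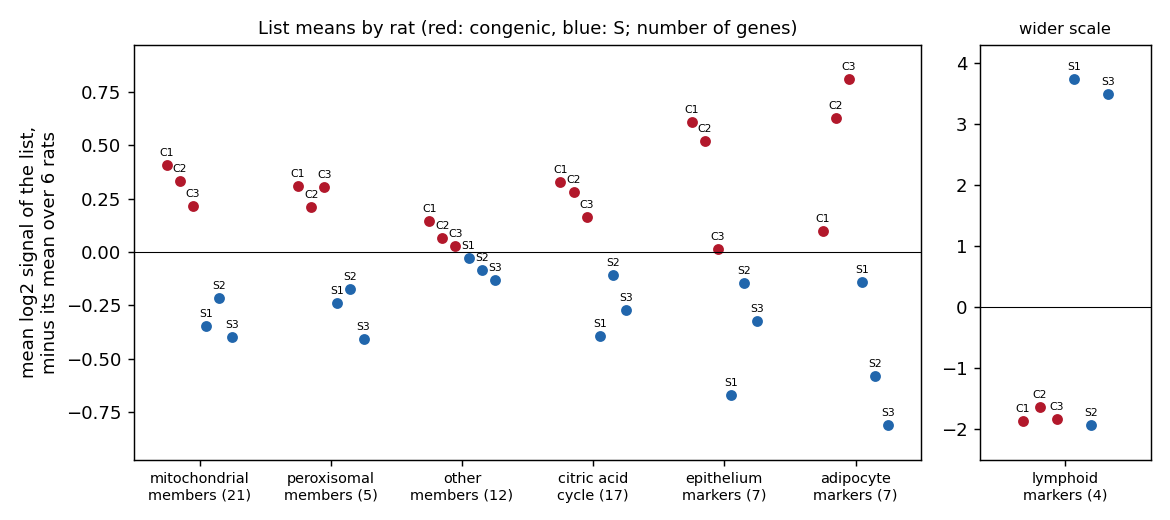
Mean log2 signal of each list in each rat minus its mean over 6 rats (red congenic, blue S), with the number of tested genes in parentheses and a wider scale for the lymphoid markers. Every congenic rat lies above every S rat in each list but the lymphoid markers, with C3 at 0.01 for the epithelial markers and 0.03 for the other members. For the lymphoid markers S1 and S3 stand apart at 3.74 and 3.50.

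Scan time was not balanced over the strains. The second scan holds congenic rats only, so a fit with the scan as a block compares C1 alone with the 3 S rats, and its fold changes equal those within the first scan, with a median of 0.63 over the members. In that block fit, whose spread also draws on C2 and C3, 14 members were higher at an unadjusted p under 0.05 in limma, against 3.90% of all genes. Within the first scan the spread came from the S rats alone, C1 being assumed to vary like them, and 8 members were higher, against 2.38%. C1 was the highest congenic rat in 12 of the 21 mitochondrial members, so neither value is a test of 3 rats against 3 that adjusts for the scan. The block fit left 5 genes short of that p, with log2 fold changes of 0.53 for Cd36, 0.77 for Acads, 0.63 for Hadhb, 0.59 for Eci1 and 0.64 for Etfb, those of Hadhb and Eci1 being larger than without the block.

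**Figure D5:**
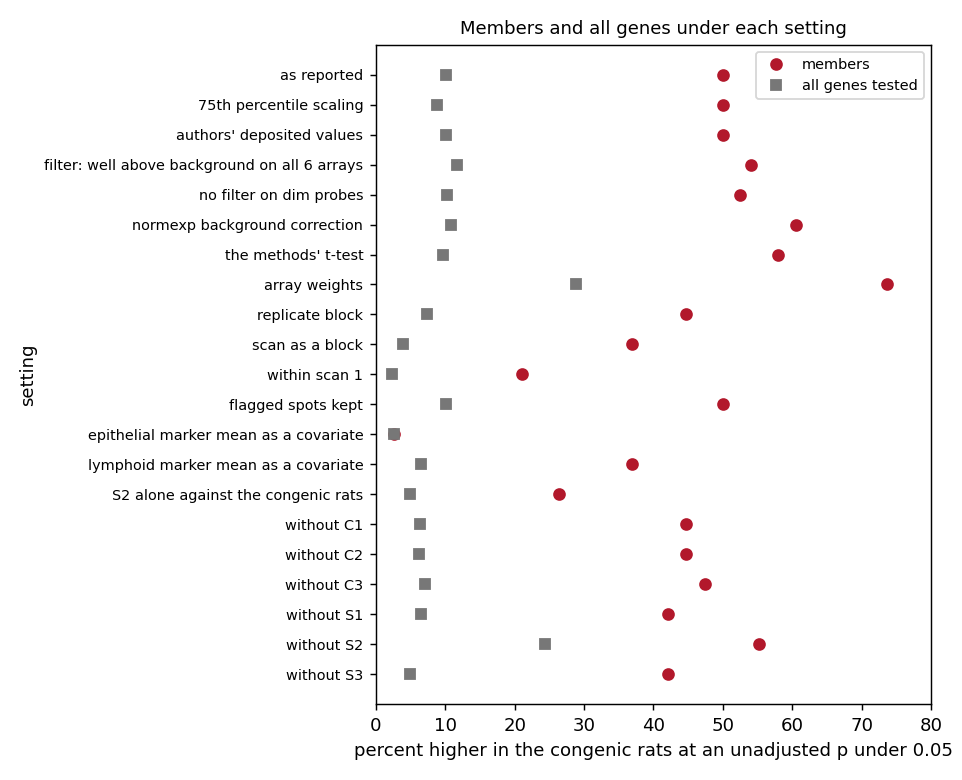
Percent of members (red circles) and of all genes tested (grey squares) higher in the congenic rats at an unadjusted p under 0.05 under each setting. As reported the values are 50.0% and 10.1%, and without S2 the share of all genes is 24.4%. With the epithelial covariate the points fall on each other, and both scan settings and S2 alone rest on a single rat of a strain. The lymphoid covariate rests largely on S2 among the S rats.

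Promoter sequence was available from RefSeq (GRCr8) for 36 of 40 members, not for Cpt1b, Acadl, Acaa2 and Decr1. The windows below hold the 250 bases before the annotated start, 5′ to 3′ on the gene's strand. They are shown for the 3 members with a 2-fold difference, for Acadvl and for Hadhb, which is divergent from Hadha with 300 bases between the starts, so that their windows share 200 bases. Capitals mark a PPAR response element (a repeat of AGGTCA with 1 base between the copies) with at most 1 mismatch, an exact GC box GGGCGG or an exact CCAAT box, on either strand.
Slc27a4 (chr3:33472653-33472902, plus strand): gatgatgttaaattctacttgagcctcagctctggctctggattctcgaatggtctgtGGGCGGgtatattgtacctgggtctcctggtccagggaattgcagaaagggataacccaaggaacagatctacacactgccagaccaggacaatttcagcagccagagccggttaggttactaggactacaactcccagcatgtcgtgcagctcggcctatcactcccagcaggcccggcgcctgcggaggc
Cpt1a (chr1:209995910-209996159, plus strand): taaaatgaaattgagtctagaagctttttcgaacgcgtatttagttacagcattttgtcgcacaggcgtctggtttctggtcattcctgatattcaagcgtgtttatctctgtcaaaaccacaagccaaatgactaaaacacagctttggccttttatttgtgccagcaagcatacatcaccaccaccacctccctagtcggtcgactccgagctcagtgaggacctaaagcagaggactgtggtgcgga
Ehhadh (chr11:92746159-92746408, plus strand): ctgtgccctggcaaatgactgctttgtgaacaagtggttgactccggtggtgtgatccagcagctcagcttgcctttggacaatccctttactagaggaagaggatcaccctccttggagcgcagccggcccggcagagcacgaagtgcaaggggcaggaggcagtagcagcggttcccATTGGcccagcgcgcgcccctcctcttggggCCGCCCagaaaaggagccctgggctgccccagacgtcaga
Acadvl (chr10:55236706-55236955, minus strand): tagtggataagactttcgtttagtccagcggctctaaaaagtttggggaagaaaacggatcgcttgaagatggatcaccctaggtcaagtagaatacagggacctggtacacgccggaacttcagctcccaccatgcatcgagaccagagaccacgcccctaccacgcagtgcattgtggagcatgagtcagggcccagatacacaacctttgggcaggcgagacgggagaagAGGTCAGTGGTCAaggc
Hadhb (chr6:31907501-31907750, minus strand): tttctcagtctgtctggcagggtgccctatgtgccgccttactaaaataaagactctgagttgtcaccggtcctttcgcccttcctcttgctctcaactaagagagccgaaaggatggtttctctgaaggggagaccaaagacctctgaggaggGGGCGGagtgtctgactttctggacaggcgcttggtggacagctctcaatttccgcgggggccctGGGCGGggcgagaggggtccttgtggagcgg

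Acadvl was the only member with the PPAR element at up to 1 mismatch in the window of 250 bases before to 50 after the start, 2.78% of the 36 members, against 0.439% of 33469 promoters. At up to 2 mismatches the shares were 13.9% and 3.77%. No member held the exact element, which 0.0538% of promoters hold. The GC box was found in 69.4% of members and 33.1% of promoters, with a median GC content of 59.7% and 51.7%, and the CCAAT box in 41.7% and 37.5%. An estrogen-related receptor element (TCA followed by AGGTCA, which shares its second part with the PPAR element) was found at up to 1 mismatch in 5.56% of members and 7.29% of promoters, and at up to 2 mismatches in 50.0% and 53.9%. An HNF4 site (CAAAG followed by TCCA) was found at up to 1 mismatch in 11.1% and 8.67%, and at up to 2 in 27 of the 36 members and 59.2% of promoters. The promoters compared were all those available and were not limited to the 12396 genes tested. A match describes the letters of this window and was not tested as a binding site. Of the motifs marked in capitals, Cpt1a, which is 2.09-fold higher, holds none in the window shown. Slc27a4 holds a GC box there and Ehhadh a GC box and a CCAAT box. At 2 mismatches Cpt1a does hold an estrogen-related receptor element and an HNF4 site in that window.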

How the data were processed

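Colon RNA of 3 S.LEW congenic and 3 S rats was hybridized to 1 single-color Agilent array per rat. The deposited scanner files hold the background-corrected intensity of each spot, which the authors obtained with Feature Extraction (version 11.0.1.1 in the submitters' processing notes) and which is not normalized between arrays. Their quantile normalization and a filter for detection in 3 of 6 samples gave the deposited log2 table of 23997 probes.

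Control spots and flagged outlier spots were left out, log2 intensities of the spots of a probe were averaged, and quantile normalization was applied over all 6 arrays. Tests ran on the 23971 of 30367 probes that 3 or more arrays showed well above background, with limma 3.58.1 in R 4.3.3, with no covariates and with Benjamini-Hochberg adjustment over all of them. Members were called at the limits the study set, a 2-fold change and an unadjusted p under 0.05, and at that p alone. Accessions were matched to RefSeq genes of GRCr8 (18005 probes, 15168 genes), and each gene was read from its probe with the highest mean. Each array is a separate rat, and their number limits the precision.

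The 40 members and the gene lists were chosen with earlier results of these data known. Values in each rat are given for members at an unadjusted p under 0.05 and for the member with the largest change of each role. From other lists, up to 5 genes with the lowest p, the PPAR receptors and some further genes are named without values in each rat. Some genes of the pathway are not reported here. Alternatives covered the scaling, the deposited log2 values, the filter, normexp, array weights, the scan, the methods' t-test, the replicate number as a block, the probe of a gene and leaving out each rat. The script was tested on simulated data. Plots were drawn with matplotlib 3.10.9.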

Additional observations from a re-analysis of the deposited data

How the results depend on the processing

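The counts and medians of the members were recomputed under 21 alternatives, of which the epithelial and lymphoid covariates and S2 as the only S rat were chosen after seeing the data. The number of members with a positive fold change was 32 to 34 in all of them but the mean over a gene's probes, where it was not counted. As reported, 3 members were higher and 0 lower with a 2-fold change, 19 higher and 1 lower at an unadjusted p under 0.05, and the medians were 0.52 for all, 0.70 for mitochondrial and 0.45 for peroxisomal members. With array weights 8 were higher with a 2-fold change and 2 lower at any fold, against 21.35% of all genes lower. The medians were 0.61 for all and 0.60 for peroxisomal members. With the scan as a block and within the first scan 6 were higher and 1 lower with a 2-fold change, the median was 0.63, and within the first scan 8 were higher at any fold. With the epithelial covariate 1 was higher with a 2-fold change and 1 at any fold, 0 were lower at any fold, and the mitochondrial and peroxisomal medians were 0.51 and 0.55. With the lymphoid covariate 1 was higher with a 2-fold change, 0 were lower at any fold, and the medians were 0.41 for all and 0.60 for mitochondrial members. With S2 alone as the S rat, which leaves its spread unmeasured as the scan settings do that of C1, 1 was higher with a 2-fold change, 10 were higher and 0 lower at any fold, and the median was 0.41. Leaving out 1 rat in turn gave 1 to 8 higher and 0 to 1 lower with a 2-fold change (1 without C1 or S3, 7 without C3, 8 without S2). At any fold 16 to 21 were higher and 0 to 2 lower. The 21 higher and 2 lower were found without S2, with 24.4% of all genes higher and 18.8% lower. With any other rat left out, 4.98% to 7.10% of all genes were higher and 1.3% to 3.2% lower. The medians were 0.47 to 0.65 for all, 0.62 to 0.73 for mitochondrial and 0.36 to 0.62 for peroxisomal members. The share of all genes with a 2-fold change was taken only as reported, at 3.79% higher and 2.64% lower. The log2 fold changes of 4 named members changed sign with the epithelial covariate: Acsl4 (0.073), Slc16a1 (-0.046), Acot1 (-0.44) and Angptl4 (0.30). The cause was not tested.

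The rats share replicate numbers in the labels, but same-numbered rats did not deviate together (correlations of -0.017, -0.13 and -0.061 over 23965 probes). The replicate numbers were not taken as pairs. Each cage held an S rat and a congenic rat, but the labels do not say which rats shared a cage. Pairing by cage could therefore not be examined. With the replicate number as a block 17 members were higher and 1 lower at an unadjusted p under 0.05, against 7.41% and 4.7% of all genes. With a 2-fold change 3 were higher, and the median was 0.52. Hadhb and Eci1 no longer reached the threshold. Signal over background limits Acox2 and Pdk4, for which no difference could be given.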
